A study of Arabidopsis thaliana with 6 samples.

Results

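Levels of 5 genes of tetrapyrrole synthesis were compared between rosette leaves of atrap and wild-type (WT) Arabidopsis thaliana, a cress widely studied in plant genetics. The genes were GSA1 (AT5G63570), HEME1 (AT3G14930), HEME2 (AT2G40490), CHLI2 (AT5G45930) and PORB (AT4G27440). They were taken by symbol among probe sets paired with exactly 1 gene, which gave 1 probe set for each of the 5, among 13356 genes with such a probe set. They were chosen by their log2 change between atrap and WT in these same arrays, so the changes below are described and not tested.

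The tested plants carried the mutation that the labels call atrap and the others were WT, with 3 arrays per genotype. All plants were 3 weeks old, grew at 23 °C with 12 h light and 12 h dark each day, and had no treatment. The labels name neither the allele, the locus nor the accession of the mutant, and call the arrays of a genotype biological replicates without saying how many plants each holds. Values are log2 expression levels per probe set made by RMA, a method that corrects background, equalises the arrays and summarises the probes of each set.

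Tetrapyrroles are ring-shaped pigments that plants make in plastids. The pathway begins with glutamate bound to its transfer RNA, passes through aminolevulinic acid (ALA) and a series of porphyrins, and then divides. Insertion of magnesium leads to chlorophyll, insertion of iron leads to heme, and an earlier branch leads to siroheme. In green leaves most of the flow goes to chlorophyll, and free intermediates of the chlorophyll branch are harmful in light. GSA1 encodes a glutamate semialdehyde aminomutase, which makes ALA. HEME1 and HEME2 encode uroporphyrinogen III decarboxylases, which act before the magnesium and iron branches part. CHLI2 encodes an isoform of the I subunit of magnesium chelatase, the entry to the chlorophyll branch, and PORB a light-dependent protochlorophyllide oxidoreductase near its end.

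The RAP transcript (AT2G31890), which carries the synonym ATRAP in the gene annotation used, averaged 6.53 ± 0.19 in atrap and 7.69 ± 0.22 in WT (log2, SD, n = 3 each), a log2 change of -1.16 (limma, adjusted p = 0.00741). Array medians lay between 6.50 and 6.57, and arrays have no read depth, so that their number limits the precision. Some arrays stood apart. In atrap replicate 2, 158 probe sets lay over 1 log2 unit above and 108 over 1 unit below the mean of the other atrap arrays, where those were within 0.5 of each other. In WT replicate 3, 191 lay above and 6 below, and in the remaining 4 arrays at most 42 did so in either direction. None of the 5 genes was among them (0 in each array). The spike-in controls added before labelling, which carry a poly-A tail, averaged 6.51 ± 0.08 in atrap and 6.90 ± 0.16 in WT (log2 mean over 24 probe sets, SD, n = 3 each, two-sided exact permutation p = 0.1, the lowest value possible with 3 against 3 arrays). For actin, the 3-prime probe set minus the 5-prime one, which reflects RNA integrity, was 2.29 in atrap and 2.65 in WT (log2 means, exact permutation p = 0.1). The atrap minus WT value of another actin pair was -0.15 (exact permutation p = 0.1), and the same difference for GAPDH was 0.32 in atrap and 0.34 in WT (exact permutation p = 0.6). The part of these differences in the results was not tested.

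For the labelled tissue, 1 of 9 leaf markers was measured, here and below meaning that a probe set was paired with exactly that gene. Genes not measured may still be on the array, since 8730 probe sets had no gene listed and 503 had several. The marker measured was RCA (Rubisco activase), at 14.91 ± 0.05 in atrap and 14.91 ± 0.02 in WT (log2, SD, n = 3 each). Of 13 markers of root hairs, guard cells, phloem, trichomes, epidermis and meristems, 4 were measured. Their summed linear level ran from 469.7 to 491.1 in atrap arrays and from 501.7 to 574.5 in WT arrays. TRY, which acts in trichome patterning, was the 1 of the 4 that passed, at -0.45 on the log2 scale, atrap minus WT (adjusted p = 0.0435 by limma). Of all probe sets, 6.41% were called lower. TRY weighs most in the sum, with a WT mean of 8.34 against 7.01 for FAMA, 5.84 for EXPA18 and 5.18 for EXPA7. These others did not pass, with log2 changes of 0.14 for FAMA, -0.05 for EXPA18 and 0.24 for EXPA7. For EXPA7 every atrap array lay above every WT array, as for 19.1% of all probe sets, at a low level (limma, adjusted p = 0.102). The log2 changes of the 4 markers thus did not share a sign, and no opposite change to that of TRY was established. The part of trichomes in the results was not tested. Less RNA per cell and fewer cells of a type cannot be told apart in whole leaves.

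GSA1, HEME1, HEME2 and CHLI2 were higher in atrap leaves by 1.44-fold to 1.58-fold, and PORB was lower. Every atrap array lay above every WT array for the first 4 genes and below every WT array for PORB. Across all 22746 probe sets tested, 19.1% lay wholly above and 16.5% wholly below WT. An adjusted p of 0.05 (limma, across all probe sets) was passed by 13.1% of probe sets, 6.7% higher and 6.41% lower in atrap. In that fit 4 of the 5 genes were past the threshold and PORB was not, and these are the values by which the genes were chosen.

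At the ALA step, GSA1 read 11.35, 11.21 and 11.38 in atrap replicates 1, 2 and 3, against 11.04, 10.40 and 10.53 in WT replicates 1, 2 and 3 (log2 levels, as for all per-array values below). The WT arrays were spread more widely than the atrap arrays, with WT replicate 1 nearest to the mutant. The lowest atrap array exceeded the highest WT array by 0.18. The means were 11.31 ± 0.09 in atrap and 10.65 ± 0.34 in WT (SD, n = 3 each), a log2 change of 0.66 with a standard error of 0.16, or 1.58-fold. Of all probe sets, 2.76% had a log2 change at least as high.

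**Figure D1:**
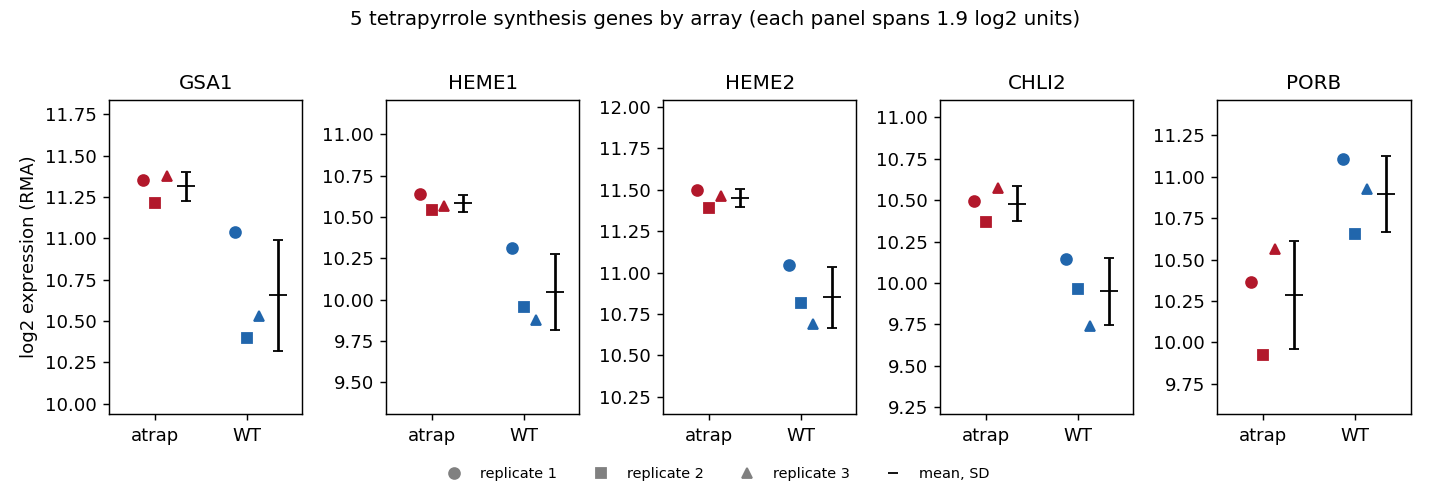
Log2 expression (vertical axis) of the 5 genes in the 3 atrap arrays (left, red) and the 3 WT arrays (right, blue), 1 panel per gene, with marker shape for the replicate number and black bars for mean and SD. Each vertical axis covers the same span but starts at its own level and not at 0. In GSA1, HEME1, HEME2 and CHLI2 the atrap arrays lie above the WT arrays, and in PORB below them.

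HEME1 and HEME2 are paralogs that encode the same enzyme activity, and both were higher in atrap. HEME1 read 10.64, 10.54 and 10.57 in the atrap arrays, in order of replicate number, against 10.31, 9.95 and 9.88 in the WT arrays. The atrap values lay within 0.10 of each other while WT replicate 1 stood above the other WT arrays. HEME1 averaged 10.58 ± 0.05 in atrap and 10.05 ± 0.23 in WT (SD, n = 3 each), a log2 change of 0.53 with a standard error of 0.12, or 1.45-fold. HEME2 read 11.50, 11.39 and 11.46 in the atrap arrays, against 11.05, 10.81 and 10.69 in the WT arrays. It had the widest gap of the 5 genes, 0.35 between the lowest atrap and the highest WT array. HEME2 averaged 11.45 ± 0.06 in atrap and 10.85 ± 0.18 in WT (SD, n = 3 each), a log2 change of 0.60 with a standard error of 0.10, or 1.52-fold. The log2 changes of HEME1 and HEME2 differed by 0.07, less than either standard error. Cross-hybridisation between the paralogs was not tested, and nothing in the names of these 2 probe sets marks probes in common.

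At the entry to the chlorophyll branch, CHLI2 read 10.49, 10.37 and 10.58 in the atrap arrays, against 10.14, 9.97 and 9.74 in the WT arrays. The groups were parted by 0.22 between atrap replicate 2 and WT replicate 1. CHLI2 averaged 10.48 ± 0.11 in atrap and 9.95 ± 0.20 in WT (SD, n = 3 each), a log2 change of 0.53 with a standard error of 0.12, or 1.44-fold. CHLI1, the paralog that encodes the other isoform of this subunit, and GSA2, the paralog of GSA1, had no probe set paired with 1 gene and were not analysed here.

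PORB ran the other way. It read 10.36, 9.93 and 10.56 in the atrap arrays, against 11.11, 10.65 and 10.93 in the WT arrays. The groups came close to touching, with 0.09 between atrap replicate 3 and WT replicate 2, and atrap replicate 2 was well below the other atrap arrays. PORB averaged 10.28 ± 0.33 in atrap and 10.90 ± 0.23 in WT (SD, n = 3 each), a log2 change of -0.61 with a standard error of 0.18, or 1.53-fold higher in WT. Of all probe sets, 4.75% had a log2 change at least as low. Its paralogs PORA and PORC were not analysed here.

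In each atrap array PORB and the other 4 genes lay on opposite sides of their WT means. This restates per array the changes by which the genes were chosen. Taken as deviations from the WT mean of each gene, the mean of GSA1, HEME1, HEME2 and CHLI2 was 0.62, 0.50 and 0.62 in atrap replicates 1, 2 and 3, and 0.26, -0.09 and -0.17 in WT replicates 1, 2 and 3. The deviation of PORB was -0.53, -0.97 and -0.33 in the atrap arrays, and 0.21, -0.24 and 0.03 in the WT arrays. The gap between the mean of the 4 and PORB was thus 0.95 to 1.47 in atrap and -0.20 to 0.15 in WT. In atrap replicate 2 the 4 genes were closest to WT and PORB was farthest from it. Among the 4 genes the log2 changes differed from each other by at most 0.13, between GSA1 and CHLI2, while each differed from that of PORB by 1.14 to 1.27.

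Within each genotype the 5 genes shared their extreme arrays. This is a description, since genes that vary together are not separate observations. WT replicate 1 was the highest WT array for 5 of the 5, against 43.6% of all probe sets. Atrap replicate 2 was the lowest atrap array for 5 of the 5, against 38.8% of all probe sets. Both held at once for 19.1% of all probe sets. The further 8 measured genes of the pathway had WT replicate 1 as the highest WT array in 7 and atrap replicate 2 as the lowest atrap array in 6. WT replicate 1 also read 9.95 for the hybridisation spike-in controls, against 10.38 to 10.62 in the other 5 arrays, and the part of this in the gene values was not tested. The 5 genes differed in how far they varied. The pooled SD within genotypes was 0.13 for HEME2, 0.16 for CHLI2, 0.17 for HEME1, 0.25 for GSA1 and 0.28 for PORB. Of all probe sets, 91.9% varied less than PORB, 89.0% less than GSA1 and 56.9% less than HEME2.

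**Figure D2:**
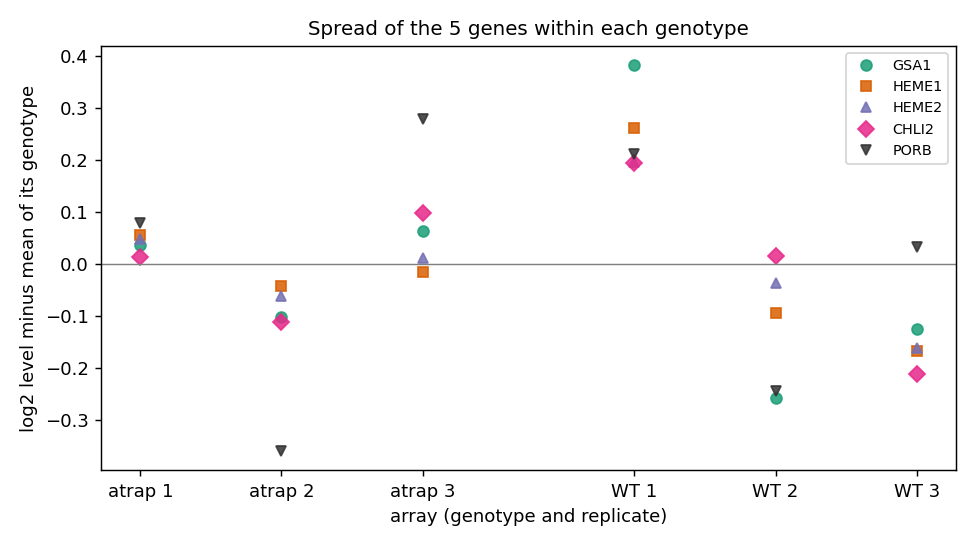
Deviation of each of the 5 genes from the mean of its own genotype (log2, vertical axis) in each array (horizontal axis, atrap left and WT right), with colour and shape for the gene. All 5 genes lie above 0 in WT replicate 1 and below 0 in atrap replicate 2, where PORB is lowest at -0.36.

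Leaving out single arrays changed the sizes of the changes and none of their directions. Without WT replicate 1 the log2 change was 0.85 for GSA1, 0.67 for HEME1, 0.70 for HEME2, 0.63 for CHLI2 and -0.50 for PORB. Without atrap replicate 2 it was 0.71, 0.55, 0.63 and 0.58 for the same 4 genes in that order, and -0.43 for PORB. Without WT replicate 3 it was 0.60 for GSA1, 0.45 for HEME1, 0.52 for HEME2, 0.42 for CHLI2 and -0.59 for PORB. With atrap replicate 2 and WT replicate 1 both left out, a choice made after seeing the data, the change of PORB shrank to -0.33 while that of GSA1 grew to 0.90. The number of the 5 genes past an adjusted p of 0.05 (limma) was 0 without atrap replicate 1, 2 without atrap replicate 2, 0 without atrap replicate 3, 4 without WT replicate 1, 0 without WT replicate 2 and 1 without WT replicate 3. Over all 22746 probe sets the counts were 350, 2662, 629, 3863, 438 and 1260 in the same order. The counts for the 5 genes thus followed those of the whole table. In each of the 3 runs with a count of 0, 5 of the 5 had an unadjusted p under 0.05 by limma. So did 5291, 5517 and 5310 of all 22746 probe sets, without atrap replicate 1, atrap replicate 3 and WT replicate 2. Since this contrast chose the genes, these p-values do not test them.

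**Figure D3:**
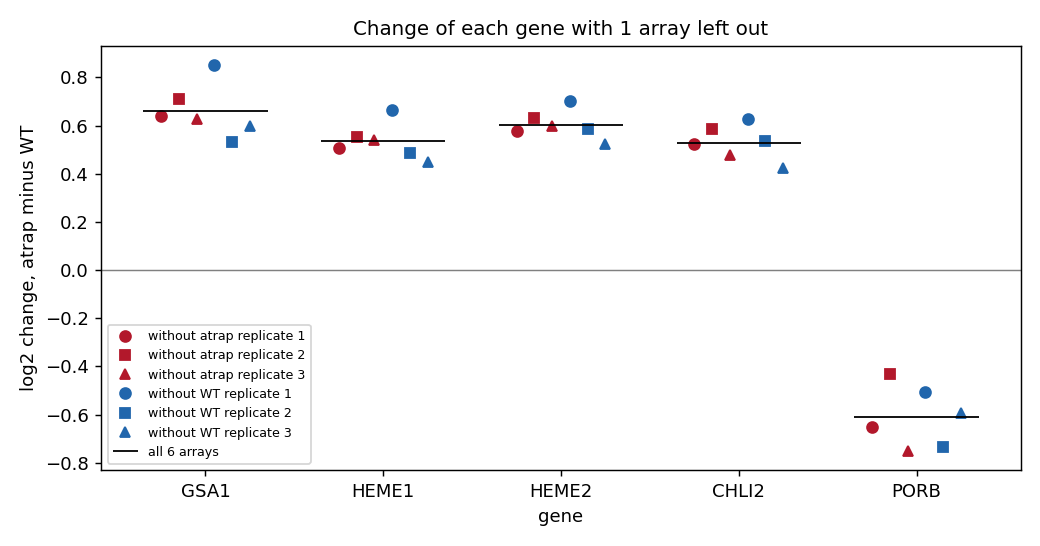
Log2 change of each gene, atrap minus WT (vertical axis), with all 6 arrays (black line) and with 1 array left out (points, red for an atrap and blue for a WT array, shape for the replicate number). GSA1 ranges from 0.53 to 0.85 and PORB from -0.75 to -0.43, and no point crosses 0.

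The remaining genes of the pathway came from a list of 39 entries that spans ALA formation, porphyrins, the chlorophyll, heme and siroheme branches and the conversion of heme to bilins. Of these, 13 had a probe set paired with 1 gene, the 5 genes above and 8 others, and 26 were not analysed here. Among the 8, HEMB1 rose and 7 did not pass the test (limma, adjusted over all probe sets), against 6.7% of all probe sets called higher and 6.41% called lower. The log2 change was positive in 8 of 8, against 55.7% of all probe sets, and its median was 0.16, against 0.03 over all probe sets. HEMA3, at 0.03, lay at that overall median and changed sign under 3 alternatives. Most of the 8 shared their extreme arrays, as given above, so they are not 8 separate observations.

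HEMB1 encodes ALA dehydratase, which joins ALA molecules in the step after GSA1. It read 11.55, 11.43 and 11.60 in the atrap arrays, against 11.31, 10.98 and 11.01 in the WT arrays, and the groups did not overlap. The means were 11.53 ± 0.09 in atrap and 11.10 ± 0.18 in WT (SD, n = 3 each), a log2 change of 0.43 with a standard error of 0.11, or 1.35-fold (limma, adjusted p = 0.0450). WT replicate 1 was again the highest WT array and atrap replicate 2 the lowest atrap array. The adjusted p by limma was 0.142 without atrap replicate 1, 0.0507 without atrap replicate 2, 0.137 without atrap replicate 3, 0.147 without WT replicate 2 and 0.116 without WT replicate 3, so that among single arrays only leaving out WT replicate 1 (0.0128) kept the call.

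Of the 7 that did not pass, HEMA2, an isoform of glutamyl-tRNA reductase that acts just before GSA1, averaged 7.51 ± 0.21 in atrap and 7.32 ± 0.16 in WT (SD, n = 3 each, limma, adjusted p = 0.374). CHLM, the methyltransferase that acts after magnesium chelatase, averaged 12.86 ± 0.14 in atrap and 12.69 ± 0.15 in WT (adjusted p = 0.355). AT1G74470, a geranylgeranyl reductase that makes the phytol tail of chlorophyll, averaged 14.21 ± 0.02 in atrap and 14.05 ± 0.08 in WT (adjusted p = 0.213). These 3 genes had log2 changes of 0.19, 0.17 and 0.15, each smaller than that of any of the 4 higher genes. Those 4 were chosen by their change in these arrays, so the comparison does not test whether these 3 responded less. SIRB, the ferrochelatase of siroheme, averaged 9.66 ± 0.05 in atrap and 9.50 ± 0.08 in WT (log2 change 0.16, limma, adjusted p = 0.215). The groups did not overlap for SIRB or AT1G74470, and 19.1% of all probe sets likewise lay wholly above WT. A paralog annotated hemb2 averaged 4.48 in atrap and 4.31 in WT, also without overlap (limma, adjusted p = 0.170). HEMA3 averaged 4.78 in atrap and 4.75 in WT, and hemf2 averaged 6.76 ± 0.42 in atrap and 6.60 ± 0.30 in WT. RMA compresses changes at levels as low as those of hemb2 and HEMA3, so these values do not show unchanged transcripts.

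**Figure D4:**
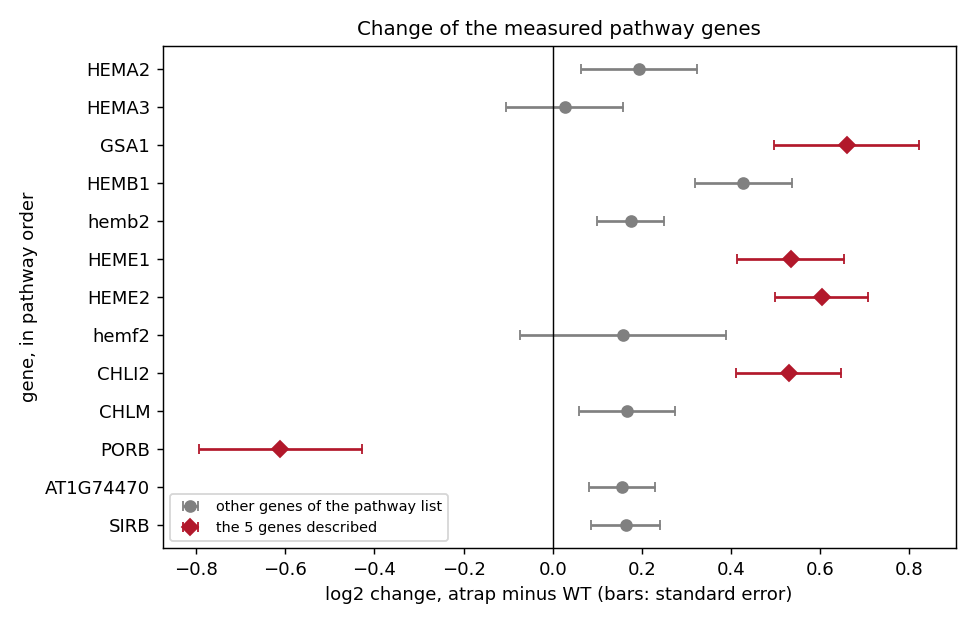
Log2 change, atrap minus WT (horizontal axis, bars for the standard error), of the 13 measured pathway genes, from the top in the order of their steps, with red diamonds for the 5 genes described and grey circles for the 8 others. PORB, at -0.61, is the 1 gene left of 0, and GSA1, at 0.66, lies farthest to the right.

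Genes that regulate or receive the products of the pathway were sparsely covered by probe sets paired with exactly 1 gene. Of 14 regulators and accessory factors, 2 were measured, and 1 of them rose, against 6.7% of all probe sets called higher. LIL3:1 is a light-harvesting-like membrane protein that binds geranylgeranyl reductase. It read 12.38, 12.35 and 12.22 in the atrap arrays, against 11.79, 11.79 and 11.80 in the WT arrays. Its WT arrays were nearly alike and its groups were far apart, with a log2 change of 0.53 and a standard error of 0.08, or 1.44-fold (limma, adjusted p = 0.0103). The adjusted p by limma was 0.0568 without atrap replicate 1 and 0.0527 without WT replicate 2. Its paralog LIL3:2 averaged 12.26 ± 0.04 in atrap and 12.28 ± 0.05 in WT (adjusted p = 0.888).

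For chlorophyll breakdown, 1 of 11 listed genes was measured. NOL, a chlorophyll b reductase, averaged 9.69 ± 0.06 in atrap and 9.46 ± 0.05 in WT (SD, n = 3 each), with an adjusted p of 0.0845 (limma). Its groups did not overlap, and 19.1% of all probe sets likewise lay wholly above WT. Of 25 genes of chlorophyll-binding light-harvesting and related proteins, 3 were measured, and 1 fell, against 6.41% of all probe sets called lower. LHCB4.3, an isoform of a minor antenna protein of photosystem II, read 10.64, 11.34 and 10.61 in the atrap arrays, against 11.61, 11.64 and 11.65 in the WT arrays. Atrap replicate 2 lay nearest to WT, and the log2 change was -0.77 with a standard error of 0.19, or 1.70-fold higher in WT (limma, adjusted p = 0.0405). The adjusted p was 0.136 without atrap replicate 1, 0.121 without atrap replicate 3, 0.0661 without WT replicate 1, 0.127 without WT replicate 2 and 0.0972 without WT replicate 3. LHCB4.1 and LHCB4.2 had log2 changes of -0.07 and -0.11 (adjusted p = 0.557 and 0.388), at levels above 14 in both genotypes.

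**Figure D5:**
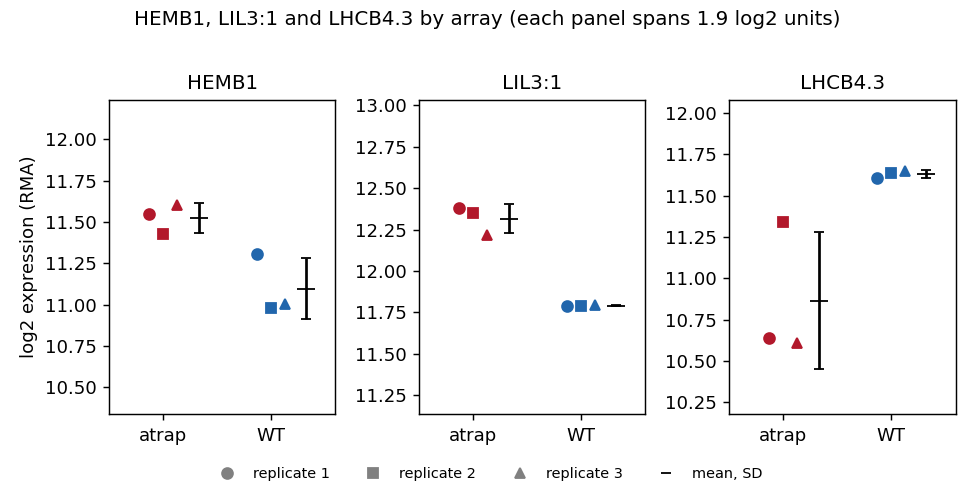
Log2 expression (vertical axis) of HEMB1, LIL3:1 and LHCB4.3 in the 3 atrap arrays (left, red) and the 3 WT arrays (right, blue), with marker shape for the replicate number and black bars for mean and SD. Each vertical axis covers the same span and does not start at 0. HEMB1 and LIL3:1 are higher in all 3 atrap arrays and LHCB4.3 is lower, with atrap replicate 2 closest to WT in LHCB4.3.

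Likeness of pattern was measured as Pearson's r of log2 levels over the 6 arrays, which the difference between genotypes dominates, and is given as a description. HEME1 and HEME2 had an r of 0.99 with each other, HEME2 and CHLI2 0.98, and GSA1 and HEME1 0.98. The r was 0.96 for HEME1 and CHLI2, 0.95 for GSA1 and HEME2, and 0.93 for GSA1 and CHLI2. PORB had -0.46 with GSA1 and -0.65 with HEME2. Many other genes were as alike over so few arrays. The number of probe sets of 1 gene with an r above 0.95 was 417 for GSA1, 526 for HEME1, 596 for HEME2 and 506 for CHLI2, and 36 for PORB. The 3 most alike were AT3G60245, AT3G18190 and AT5G20600 for GSA1, and AT3G25120, AT3G08740 and AT2G30540 for HEME1. They were AT2G17240, AT5G48220 and AT3G24506 for HEME2, and AT4G39200, AT5G57170 and AT5G24260 for CHLI2. For PORB they were AT2G46060, AT3G10680 and AT5G47510, with r of 0.98 to 0.99 and small log2 changes of -0.23, -0.20 and -0.14. AT3G10680 read 4.04 to 4.45 and AT5G47510 read 4.24 to 4.54, levels low enough for RMA to compress changes.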

How the data were processed

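Total RNA was hybridised to Affymetrix arrays, 3 per genotype. The authors deposited log2 expression values per probe set, produced by RMA according to the submitters' processing notes. Neither software version nor probe set definition is stated there, and the scale was taken as log2 because values ran from 3.12 to 15.01. A change common to all transcripts would be removed by RMA.

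Groups came from the sample titles. After 64 control probe sets were left out, 22746 were fitted by lmFit and eBayes of limma 3.58.1 (R 4.3.3), with two-sided p-values adjusted over all of them by Benjamini-Hochberg and no filter or further normalization. Gene names came from the platform's table (13513 probe sets with 1 gene, 503 with several, 8730 with none listed), updated for 13436 of the 13513 through a TAIR10.1 gene table used for names. Tables and figures used Python 3.11.15, pandas 2.3.3, numpy 2.4.6 and matplotlib 3.10.9. P-values measure the spread between the arrays, which may be partly technical.

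The 5 genes and all lists were chosen with earlier results of these data known. Named genes were the 5, all list genes past the threshold and up to 5 per list that were not, the 3 most alike probe sets for each of the 5, and RAP. All 8 further pathway genes are given, which exceeds this rule for its 7 that did not pass. RCA and the cell type markers are outside it and serve the tissue check. Planned motif counts in promoters were not made, since no promoter sequence was used here.

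In simulations built on the real levels and spreads of all 22746 probe sets, with 200 changed, the fit recovered 37.0% of changes of 0.5 log2 units, 80.9% of 1 and 97.9% of 2, with 5.48% of calls false (mean of 5 simulations, atrap minus WT). The data gave 2981 calls, and the simulated noise was independent between probe sets. These rates therefore check the fit and need not hold for these arrays. The alternatives were a replicate block, array weights, median centring or quantile normalization, a filter on dim probe sets (30th percentile or log2 6), robust or trended variance, an unmoderated test, an adjusted p of 0.01, probe sets of 1 gene alone, and leaving out arrays.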

Additional observations from a re-analysis of the deposited data

How the results depend on the processing

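The log2 changes of GSA1, HEME1, HEME2, CHLI2 and PORB kept their direction under every alternative run, and moved by less than the pooled SD except for PORB at -0.33 without atrap replicate 2 and WT replicate 1 (chosen after seeing the data). With 1 array left out they ran from 0.53 to 0.85, 0.45 to 0.67, 0.52 to 0.70, 0.42 to 0.63 and -0.75 to -0.43 for these genes in that order. Array weights gave 0.78 for GSA1 and -0.45 for PORB. Of the 5, 4 were past the threshold, with 0 in the unmoderated test, 0 at an adjusted p of 0.01, 2 without atrap replicate 2 and WT replicate 3, and 0 to 4 with 1 array left out. At those counts of 0, 4 or 5 of the 5 had an unadjusted p under 0.05.

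Of the 8 other pathway genes, the 1 call became 0 with quantile normalization (HEMB1 at 0.41, limma, adjusted p = 0.0571), in the unmoderated test and at an adjusted p of 0.01, 2 without atrap replicate 2 and WT replicate 1, and 0 to 1 with 1 array left out. Their median stayed within 0.13 to 0.25. The regulator call became 0 in the unmoderated test and at an adjusted p of 0.01, and the light-harvesting call likewise, with 0 to 1 for each when 1 array was left out. The breakdown count was 1 with array weights, where NOL passed, and 0 to 0 with 1 array left out. HEMA3 changed sign, to -0.018 with quantile normalization, -0.065 without atrap replicate 3 and -0.070 without WT replicate 3, within a range of -0.070 to 0.12 with 1 array left out. LIL3:2 changed sign, to 0.011 with median centring, 0.0035 without atrap replicate 2 and 0.022 without atrap replicate 2 and WT replicate 3, within -0.051 to 0.0035 with 1 array left out. Neither had passed. At each count of 0 for these lists by limma or the unmoderated test, 1 gene had an unadjusted p under 0.05, except 4 of the other pathway genes in the unmoderated test, 2 without atrap replicate 2, and 0 of breakdown without atrap replicate 1 or WT replicate 2.

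All probe sets gave 2981 calls, 5325 with array weights, 48 in the unmoderated test, 1541 among probe sets of 1 gene, 350 at an adjusted p of 0.01, 4483 without atrap replicate 2 and WT replicate 1, and 350 to 3863 with 1 array left out. Fewer calls follow from construction at the stricter threshold, and elsewhere the cause was not tested. Median centring gave 1979 higher and 1224 lower, against 1524 and 1457 as deposited, and moved the median change by 0.03.

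With the replicate block, 4 of the 5 genes were again past the threshold but not the same 4, since PORB passed and CHLI2 did not (3 higher and 1 lower). HEMB1 lost its call (adjusted p = 0.0582), so that 0 of the 8 other pathway genes passed, and all probe sets gave 2101 calls. The correlation of deviations between arrays of the same number was 0.13, 0.02 and -0.15, so the numbers were not taken to pair the plants.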
